A study of Homo sapiens with 18 samples.

Results

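The data compare A549 cells exposed to complete wood smoke, which carries gases and particles, with A549 cells exposed to the same kind of smoke after filtering, and so ask what the particles add to the gas phase. The comparison takes 6 of the 18 RNA-seq libraries of the series, namely every A549 library labelled as complete aerosol (numbers 1A, 2A and 3A) and every one labelled as filtered aerosol (1F, 2F and 3F), 3 against 3. A549 is a human alveolar epithelial line derived from a lung tumour, listed as wild type in both groups. In each group 400000 cells were seeded on inserts of 24 mm, left for 24 h, and kept at the air-liquid interface under a stream of 100 mL/min for 4 h, with the relative humidity at 85%. A further 3 A549 libraries came from cells that received clean air in the same way and give the background level. The same 3 groups exist for the bronchial line BEAS-2B (500000 cells per insert), which serves below for a test of the difference between lines. No label states that samples sharing a group were cultured or exposed independently, and the p-values below cover the variation among the 3 samples, part or all of which could be technical.

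Wood smoke particles carry polycyclic aromatic hydrocarbons, many of which bind the aryl hydrocarbon receptor (AhR). Unliganded AhR rests in the cytosol with chaperones such as HSP90 and PTGES3. After binding a ligand it enters the nucleus, pairs with ARNT, and binds DNA at sites with the core GCGTG. Its best known targets are the monooxygenases CYP1A1 and CYP1B1, which oxidise the same hydrocarbons, and TIPARP and AHRR, which shut the receptor down again.

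The upstream sequence of CYP1A1, TIPARP and BMF is shown here, with the receptor core on either strand (GCGTG or CACGC) in capitals. Each run is the 250 bases before a transcription start in RefSeq's promoter table for GRCh38.p14, read 5′ to 3′ on the strand of the gene. For each gene the first window that held the core was taken, so its presence here was fixed by that choice. None of these 3 genes was called in the fit of all A549 libraries described below (edgeR adjusted p = 0.756, 0.167 and 0.122). CYP1B1, the only gene called in that fit (edgeR adjusted p = 0.00297), had no entry in the promoter table, so its sequence is not shown. CYP1A1 lies on the minus strand at chr15:74725529-74725778, TIPARP on the plus strand at chr3:156674340-156674589, and BMF on the minus strand at chr15:40108880-40109129.
CYP1A1: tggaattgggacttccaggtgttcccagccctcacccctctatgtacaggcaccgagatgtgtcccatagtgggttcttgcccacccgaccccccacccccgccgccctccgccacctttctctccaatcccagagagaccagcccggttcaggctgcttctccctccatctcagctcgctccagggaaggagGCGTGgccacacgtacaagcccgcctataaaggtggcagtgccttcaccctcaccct
TIPARP: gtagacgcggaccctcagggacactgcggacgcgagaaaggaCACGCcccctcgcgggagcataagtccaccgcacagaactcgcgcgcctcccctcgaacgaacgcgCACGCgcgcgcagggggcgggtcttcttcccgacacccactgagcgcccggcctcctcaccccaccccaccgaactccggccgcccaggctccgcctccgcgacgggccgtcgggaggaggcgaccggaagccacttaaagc
BMF: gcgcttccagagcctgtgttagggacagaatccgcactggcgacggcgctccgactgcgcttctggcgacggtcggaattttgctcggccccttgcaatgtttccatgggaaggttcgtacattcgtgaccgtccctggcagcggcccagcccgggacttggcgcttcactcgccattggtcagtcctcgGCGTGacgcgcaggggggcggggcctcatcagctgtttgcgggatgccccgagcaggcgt
The core began 57 bases before the start of CYP1A1, 208 and 142 bases before that of TIPARP, and 60 bases before that of BMF. Of 31 tested genes from the receptor lists 26 had a promoter in the table, with 38 windows, and 22 of these windows (57.9%) held the core. Over all 35116 windows of 250 bases it was present in 32.2%. A match is a description of these letters and was not tested as a binding site.

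Counts in genes ranged from 14438397 to 21432089 per A549 library and did not separate complete from filtered smoke (2-sided exact permutation p = 0.7, where 3 against 3 cannot go below 0.1). The epithelial keratins KRT8 and KRT18 stood between 2230 and 8680 CPM (counts scaled to 1000000 per library) in the 9 A549 libraries. The surfactant genes SFTPC and SFTPB, which define alveolar type II cells, were at or below 0.167 CPM, and 8 of 10 alveolar type II markers were too low to test. On the first principal component of the 9 libraries, which held 68% of the variance, clean air lay at 58 to 68.1, complete smoke at -38.1, -38.3 and 10.4, and filtered smoke at -62.7, -56.9 and -0.281. In every same-numbered pair the filtered library thus lay further from clean air than the complete one. Both number 3 libraries stood apart from numbers 1 and 2 of their group. The share of reads that mapped once but were counted to no gene, which does not place them outside genes, moved the same way. It was 3.73%, 3.27% and 6.41% after complete and 2.56%, 2.86% and 5.09% after filtered smoke, that is higher after complete smoke in every pair. The part of this share in the differences below was not tested.

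In A549 cells CYP1B1, CYP1A1, TIPARP and BMF were higher after complete than after filtered smoke in every pair, from 2.33-fold to 47.8-fold, while most other genes differed by little. They were among 11 genes (0.0722% of those tested) at least 2-fold higher in all 3 pairs, and 2 (0.0131%) were at least 2-fold lower. The others of the 11 were STC2 and genes with a mean of at most 1.32 CPM after complete smoke. The median log2 difference over 15244 genes was 0, with quartiles of -0.14 and 0.16. The fit of all 9 A549 libraries with the sample number as a block (edgeR quasi-likelihood, Benjamini-Hochberg adjusted p under 0.05) called 1 gene, CYP1B1, which is 0.00656% of those tested. At an unadjusted p under 0.05 there were 959 genes (6.29%), 648 higher (4.25%) and 311 lower (2.04%). In 364 genes (2.39%) all complete libraries lay above all filtered ones and in 258 (1.69%) below them, while 3285 (21.5%) were higher and 3145 (20.6%) lower in all 3 pairs. The 95% interval of the difference lay within 2-fold either way for 13186 genes (86.5%) and within 1.5-fold for 8849 (58%).

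The number of calls differed between fits, and the cause of this was not tested. Fitted on only the 6 libraries compared, with the same block, 1371 of 14728 genes (9.31%) passed, 842 higher (5.72%) and 529 lower (3.59%). The biological coefficient of variation was 0.0736 in that fit against 0.13 over 9 libraries, in which the clean air libraries also entered. Most differences were small: the median size was 0.38 on the log2 scale, and 24 genes were at least 2-fold higher (0.163%) and 16 at least 2-fold lower (0.109%). This fit leaves 2 residual degrees of freedom and takes the spread of 13376 genes wholly from the trend over genes. In 664 of the passing genes (48.4%) the standard error of the 3 pair values was above the fitted one, and the median of each was 0.1. For many of the genes below the SD of their own pairs is therefore given. The edgeR p-values beside it belong to the fitted difference and do not use that SD. Leaving out pair 1, 2 or 3 gave 331, 505 or 1850 calls.

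**Figure D1:**
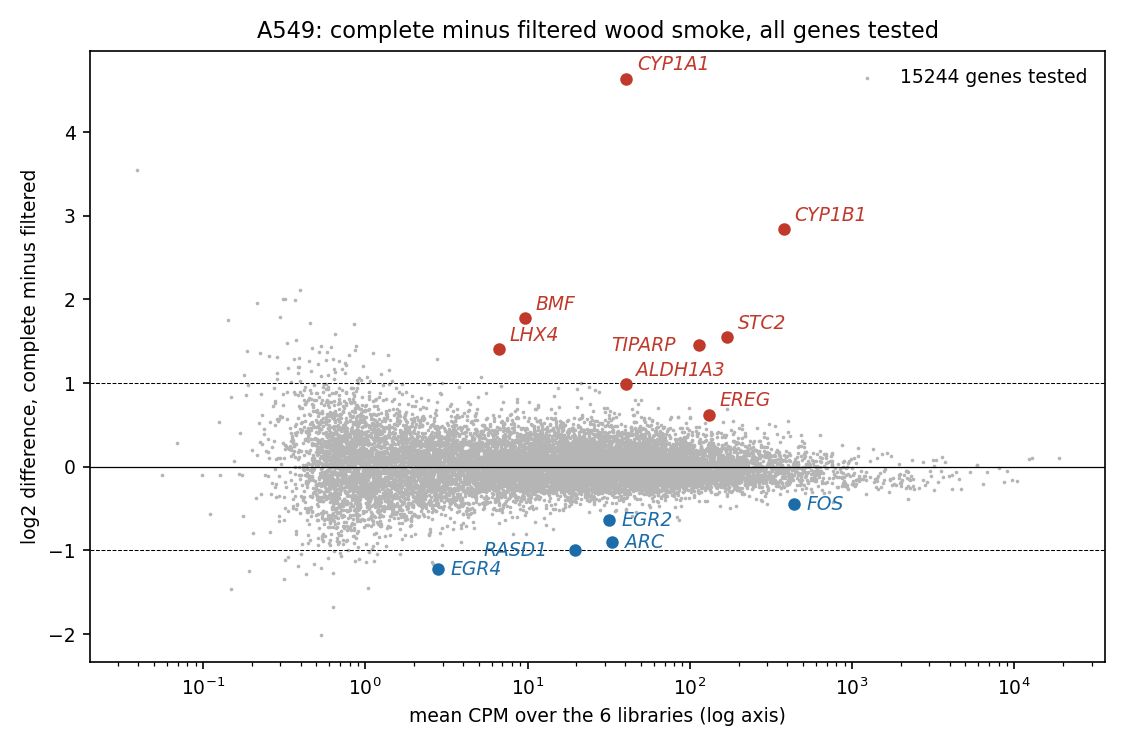
Mean level over the 6 A549 libraries (CPM, log axis) against the log2 difference of complete minus filtered smoke for the 15244 genes tested (grey), with dashed lines at a 2-fold change. Named receptor-list genes and LHX4 (red) reach up to 4.64 and named lower genes (blue) lie between -0.44 and -1.22, against quartiles of -0.14 and 0.16 over all genes. The genes marked were chosen with their differences known. Other receptor-list genes, such as ALDH3A1 (-0.1), NQO1 (-0.07) and HES1 (-0.4), are not marked.

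CYP1B1 (ENSG00000138061, minus strand of chr2:38066973-38109902 in GENCODE release 29), a monooxygenase of the receptor battery, was the most abundant of the 4 genes per length. In bulk RNA a larger share of responding cells and a larger response per cell cannot be told apart. It stood at 435, 412 and 1180 CPM after complete smoke, at 67.2, 75.1 and 116 CPM after filtered smoke, and at 243, 87.6 and 241 CPM in clean air. Every complete library lay above every filtered and every clean air library, and the filtered ones were the lowest of their number in each case. The log2 difference from filtered smoke was 2.84 ± 0.28 (SE), a 7.14-fold change, with an edgeR adjusted p of 0.00297. The pairs differed by 6.48-fold, 5.48-fold and 10.2-fold, a mean of 2.83 ± 0.46 (SD, n = 3 pairs) on the log2 scale. Against clean air it was 1.76 higher after complete smoke (edgeR adjusted p = 0.000293) and 1.08 lower after filtered smoke (log2 -1.08, edgeR adjusted p = 0.00384). The call against filtered smoke was lost without the complete library of number 2 (edgeR adjusted p = 0.112), with numbers 1 and 2 only (0.209) and with no replicate block (0.998), although the log2 difference stayed between 2.54 and 3.18 over all 18 alternatives.

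CYP1A1 (ENSG00000140465, chr15:74719542-74725610), the other monooxygenase of this battery, showed the largest fold of the named genes. Complete smoke gave 41.9, 53.2 and 140 CPM and filtered smoke 2.05, 3.85 and 2.93 CPM. The clean air libraries were scattered, at 18.5, 0.727 and 3.26 CPM, so that clean air number 1 lay above all filtered libraries. The pairs differed by 20.5-fold, 13.8-fold and 47.8-fold, a mean log2 difference of 4.52 ± 0.91 (SD, n = 3 pairs). In the 9-library fit the difference of 4.64 ± 1.18 (SE) had a 95% interval of 1.64 to 7.64 and an edgeR adjusted p of 0.756, whereas the 6-library fit gave 4.61 ± 0.18 (SE) and an edgeR adjusted p of 7.33e-18. Per kilobase of exon its level after complete smoke was 22.8 RPKM, against 112 RPKM for CYP1B1.

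TIPARP (ENSG00000163659, chr3:156673235-156706770), an ADP-ribosyltransferase that represses AhR, was also higher after complete than after filtered smoke in every pair. Its levels were 114, 141 and 245 CPM after complete and 47.9, 50.9 and 80.9 CPM after filtered smoke, without overlap, and 141, 80.9 and 98.5 CPM in clean air. Complete smoke thus overlapped clean air, unlike for CYP1B1 and CYP1A1, with a log2 difference of 0.58 (edgeR adjusted p = 0.0496). The mean pair difference was 1.44 ± 0.18 (SD, n = 3 pairs) on the log2 scale. The edgeR adjusted p was 0.167 over 9 libraries and 8.87e-61 over 6. BMF (ENSG00000104081, chr15:40087890-40108892), a pro-apoptotic BH3-only protein, stood at 10.4, 9.48 and 25.8 CPM after complete smoke, 3, 4.07 and 5.44 CPM after filtered smoke and 20.4, 14.3 and 18.6 CPM in clean air. Here the filtered libraries were the low ones: BMF was 2.12 below clean air after filtered smoke (log2 -2.12, edgeR adjusted p = 4.15e-05) and -0.34 on the same scale after complete smoke (adjusted p = 0.239). Its pair difference was 1.73 ± 0.51 (SD, n = 3 pairs). The fitted difference of BMF was 1.78 over 9 libraries (edgeR adjusted p = 0.122) and 1.79 over 6 (7.55e-30).

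STC2, a secreted glycoprotein hormone that is also on the ATF4 list, stood at 134, 208 and 430 CPM after complete and 56.3, 104 and 89.3 CPM after filtered smoke. The groups did not overlap, but the pairs were uneven at 2.38-fold, 2-fold and 4.82-fold, and neither fit called it (edgeR adjusted p = 0.307 over 9 libraries and 0.247 over 6). Leaving out single pairs from the 6-library fit moved its adjusted p between 2.12e-32 and 0.647.

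**Figure D2:**
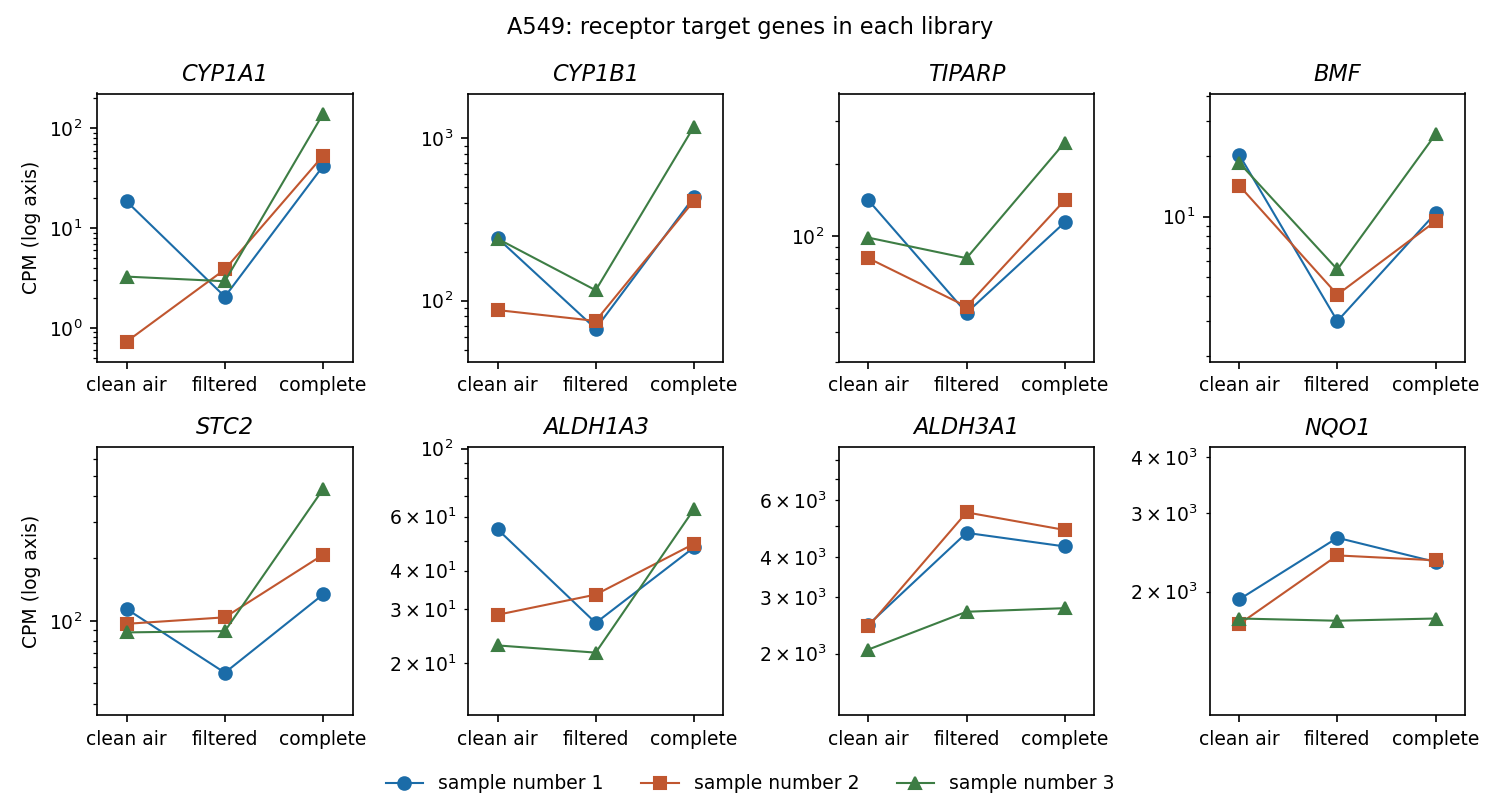
Levels (CPM, log axis) of 8 receptor-list genes in the 9 A549 libraries, with lines joining libraries of the same sample number. CYP1A1, CYP1B1, TIPARP, BMF and STC2 are higher after complete than after filtered smoke in every number without overlap of the groups, while ALDH3A1 and NQO1 are not.

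Of the 9 genes of the AhR core list 8 were tested over 9 libraries. CYP1B1 alone passed, 4 were higher at an unadjusted p under 0.05 against 4.25% of all genes, and the list median was 0.42 against 0 over all genes. The 6-library fit called 4 of 7 higher (CYP1A1, CYP1B1, TIPARP and CYP2S1), against 5.72% of all genes, and none lower. CYP2S1, another monooxygenase, differed by only 0.3 ± 0.13 (SE), with 94.7, 93.6 and 102 CPM after complete and 79.6, 92.2 and 66.4 CPM after filtered smoke. ALDH3A1, an aldehyde dehydrogenase, and NQO1, a quinone reductase, are on the same list and showed no such difference. ALDH3A1 was at 4310, 4850 and 2770 CPM after complete and 4750, 5500 and 2700 CPM after filtered smoke, a log2 difference of -0.1 ± 0.16 (SE, edgeR adjusted p = 0.867). For NQO1 it was -0.07 ± 0.14 (SE, edgeR adjusted p = 0.901). ALDH3A1 was higher than in clean air after both smokes, by 0.73 (edgeR adjusted p = 0.00212) and 0.83 (0.000635). AHRR, a repressor of the receptor, was at 0.223 to 0.795 CPM in the 6 libraries, too low for the 6-library fit, and CYP1A2 at 0.0568 CPM or less.

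In the list of wider receptor targets 16 of 20 genes were tested. No member passed over 9 libraries, 6 were higher and none lower at an unadjusted p under 0.05 (4.25% and 2.04% of all genes), and the median was 0.26. The 6-library fit called 6 higher and 1 lower (5.72% and 3.59% of all genes). ALDH1A3, which makes retinoic acid, stood at 47.6, 48.9 and 63.4 CPM after complete and 27, 33.4 and 21.6 CPM after filtered smoke, a mean pair difference of 0.97 ± 0.52 (SD, n = 3 pairs) with edgeR adjusted p-values of 0.756 over 9 libraries and 3.21e-18 over 6. EREG, a ligand of the epidermal growth factor receptor, stood at 104, 129 and 250 CPM after complete and 85.2, 85.4 and 134 CPM after filtered smoke, so that number 3 carried the highest value of both groups and the ranges overlapped. NFE2L2, which encodes the transcription factor NRF2, was 0.38 ± 0.1 (SD, n = 3 pairs) higher (edgeR adjusted p = 0.756 over 9 libraries and 0.000262 over 6), and NPTX1, a secreted pentraxin, 0.63 ± 0.48 (0.756 and 6.71e-08). The mean of NFE2L2 was 126 CPM after complete and 95.9 CPM after filtered smoke, against 154 CPM in clean air. The 1 lower gene was HES1, a Notch-responsive repressor, at -0.4 ± 0.19 (SD, n = 3 pairs), with an edgeR adjusted p of 0.756 over 9 libraries and 4.8e-05 over 6. Its mean was 97.8 CPM after complete and 131 CPM after filtered smoke, against 8.25 CPM in clean air. SERPINB2, IL1B, IDO1 and LRAT, all known receptor targets elsewhere, stayed below the count filter.

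The receptor itself and its partners differed little. No member of the receptor complex list passed in either fit, and the difference of AHR was 0.23 ± 0.13 (SE). AHR stood at 22.5, 24.2 and 32.8 CPM after complete and 17.8, 19.8 and 30.8 CPM after filtered smoke, and it was below clean air after both smokes, by 0.46 on the log2 scale (log2 -0.46, edgeR adjusted p = 0.0101) and by 0.69 (log2 -0.69, 0.000663).

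Outside the receptor lists, the genes with the smallest p among those higher in every pair included TFAP2A and LHX4, which are transcription factors, IGFBP1, which binds insulin-like growth factors, and DDIT4L, an inhibitor of mTOR signalling. IGFBP1 stood at 22.8, 20.2 and 37 CPM after complete, 12.7, 13.9 and 13.7 CPM after filtered smoke and 24.9, 24 and 46.6 CPM in clean air, so complete smoke lay near clean air and filtered smoke below it. LHX4 stood at 6.38, 5.6 and 17.8 CPM after complete and 2.19, 3.46 and 4.66 CPM after filtered smoke. TFAP2A differed by 0.88 ± 0.46 and DDIT4L by 0.76 ± 0.12 (log2, SD, n = 3 pairs). These 4 had edgeR adjusted p-values of 0.307 to 0.41 over 9 libraries and of at most 3.43e-06 over 6.

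**Figure D3:**
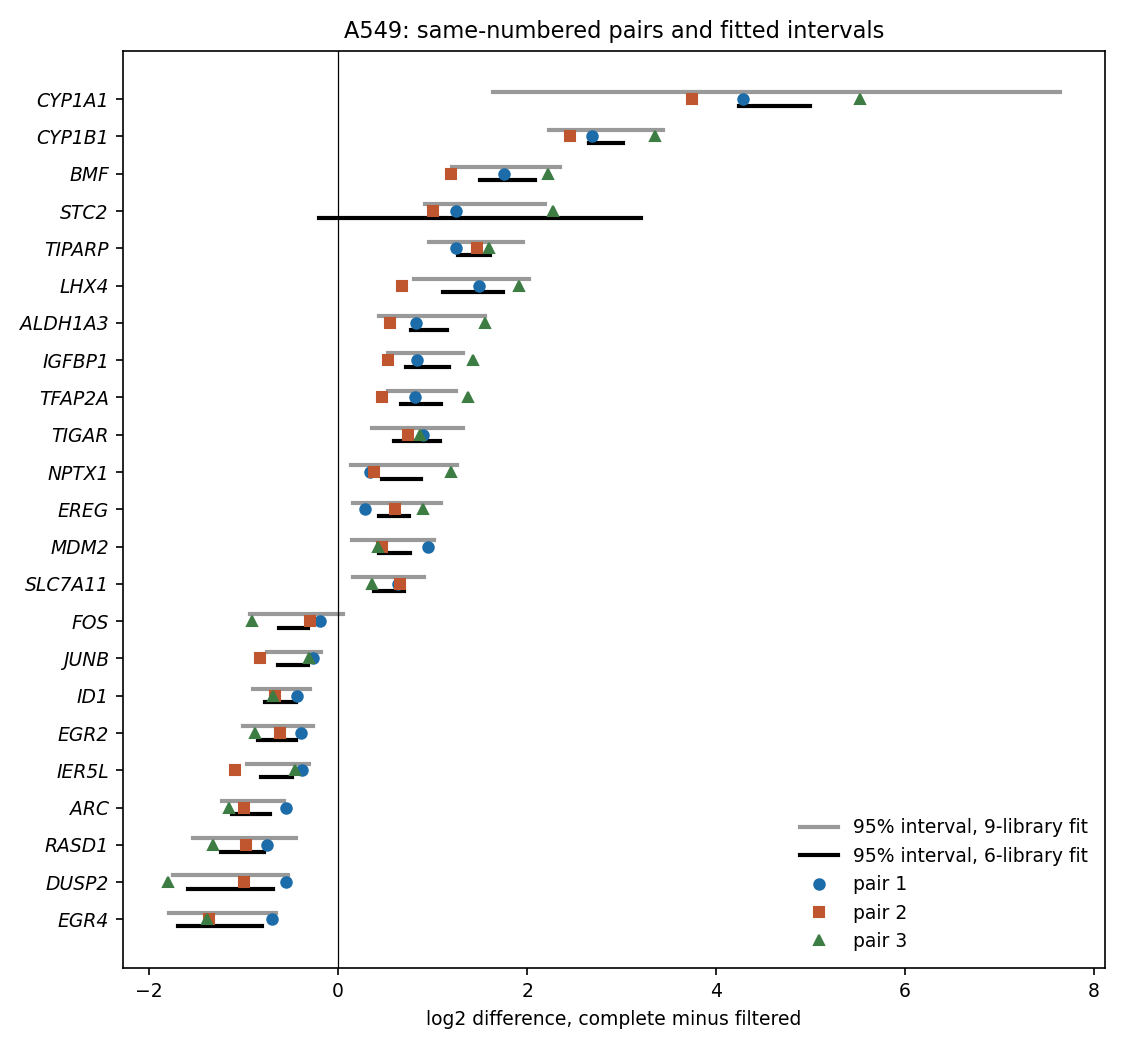
Log2 difference of complete minus filtered smoke in each same-numbered A549 pair (symbols) for 23 named genes, with the 95% interval of the 9-library fit (grey) and of the 6-library fit (black). All genes above FOS lie above 0 and FOS and those below it lie under 0 in every pair; the 6-library intervals of many genes, such as CYP1A1, CYP1B1, BMF, LHX4, IGFBP1, TFAP2A and ALDH1A3, are narrower than the range of their own 3 pairs.

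Immediate early genes, which are switched on soon after a stimulus, were the list with the most members lower at an unadjusted p under 0.05 over 9 libraries. All 32 were tested: none passed over 9 libraries, 10 were lower (against 2.04% of all genes) and 1 higher at an unadjusted p under 0.05, 18 were lower in all 3 pairs (against 20.6% of all genes), and the median was -0.18. The 6-library fit called 14 lower and 3 higher (3.59% and 5.72% of all genes). In BEAS-2B cells the same contrast gave a list median of -0.21 over 32 genes, and no gene of any kind passed there. ARC, a regulator of synaptic plasticity also induced by growth factors, stood at 20.1, 32.6 and 16.3 CPM after complete and 29.5, 64.7 and 36.3 CPM after filtered smoke, with only 0.91, 2.68 and 1.35 CPM in clean air. Its pair difference was -0.9 ± 0.31 (SD, n = 3 pairs), with an edgeR adjusted p of 0.211 over 9 libraries and 5.51e-16 over 6. The transcription factor EGR2 stood at 18.9, 31.5 and 23.5 CPM after complete, 24.8, 48.1 and 43.5 CPM after filtered smoke and 0.318 to 0.607 CPM in clean air. Both smokes thus raised it against clean air, by 5.73 (edgeR adjusted p = 2.09e-07) and 6.37 (3.81e-08) on the log2 scale, and the level after filtered smoke was the higher in every pair. EGR4 and the phosphatase DUSP2 had the lowest fitted differences of the list, at -1.22 and -1.14, on levels of at most 6.8 CPM. FOS and JUNB, subunits of the AP-1 factor, differed by -0.47 ± 0.39 and -0.47 ± 0.32 (SD, n = 3 pairs). EGR1 did not pass in either fit (-0.15 ± 0.14 SE, edgeR adjusted p = 0.799 over 9 libraries and 0.183 over 6), and NR4A3, FOSL1 and MAFF were the 3 higher ones.

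Other genes lower in every pair were RASD1, a small GTPase, IER5L, and the BMP targets ID1 and ID3, which block the DNA binding of basic helix-loop-helix factors. RASD1 stood at 15.9, 16.7 and 7.16 CPM after complete, 26.8, 32.8 and 18 CPM after filtered smoke and 1 to 2.28 CPM in clean air. ID1 stood at 73.7, 76.6 and 50.4 CPM after complete, 99.2, 122 and 81.7 CPM after filtered smoke and 33.5 to 41.9 CPM in clean air. RASD1, IER5L, ID1 and ID3 had an edgeR adjusted p of 0.756 over 9 libraries and of at most 9.31e-07 over 6.

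The targets of p53, a list of 28 genes all of which were tested, held 8 genes higher and 1 lower at an unadjusted p under 0.05 over 9 libraries, none of which passed (4.25% and 2.04% of all genes), and 10 higher and 2 lower that passed over 6 (5.72% and 3.59% of all genes). The median was 0.15 and the lowest difference -0.35, and 14 genes were higher and 5 lower in all 3 pairs (21.5% and 20.6% of all genes). The 4 genes given here are those of the list with the smallest p. MDM2, the ubiquitin ligase that degrades p53, stood at 84.5, 106 and 165 CPM after complete, 43.6, 76.5 and 123 CPM after filtered smoke and 422 to 461 CPM in clean air. Both smokes therefore lay far below clean air, by 1.98 (log2 -1.98, edgeR adjusted p = 2.58e-05) and 2.56 (log2 -2.56, 3.83e-06), and filtered smoke was the lower in every pair. TIGAR, which lowers glycolytic flux, ZMAT3 and TP53INP1 showed the same order, with pair differences of 0.84 ± 0.09, 0.75 ± 0.23 and 0.71 ± 0.21 (log2, SD, n = 3 pairs).

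All 41 cytosolic ribosomal protein genes tested had a fitted difference under 0, from -0.42 to -0.08 with a median of -0.2, and 33 were lower in all 3 pairs, against 20.6% of all genes. None passed over 9 libraries and 14 were called lower over 6, against 3.59% of all genes. RPLP2 was at 811, 697 and 432 CPM after complete and 1150, 1030 and 476 CPM after filtered smoke, against 337 to 360 CPM in clean air. The order of the groups is that of ARC and ID1, with filtered smoke the highest. Number 3 differed least, at -0.14 on the log2 scale against -0.5 and -0.56.

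The direction of the small differences went with gene length. With the 14413 genes of known exonic length in the 6-library fit cut into 5 equal bins, 1.14% of the shortest genes (up to 2492 bases) were called higher and 9.47% lower, and 13.9% of the longest (7999 bases and above) were called higher and 0.451% lower. The bin medians went from -0.12 to 0.09. Across genes, which are not independent replicates, Spearman's rho between length and difference was 0.33, and in the pairs 0.38, 0.26 and 0.1. The part of length in the list counts was not tested. List medians of the 6-library fit are given here first as fitted and then relative to their own length bins. They were 0.29 and 0.36 for the AhR core list and 0.25 and 0.23 for the wider targets. For immediate early genes they were -0.19 and -0.12, for p53 targets 0.14 and 0.13, and for ribosomal proteins -0.2 and -0.16. MKI67, a proliferation marker with 12807 bases of exon, was 0.41 ± 0.22 (log2, SD, n = 3 pairs) higher, whereas the mitosis list as a whole had a median of -0.06 over 9 libraries. The mean level of MKI67 was 325 CPM after complete smoke, 247 CPM after filtered smoke and 674 CPM in clean air. The library share of reads counted to no gene, given above, was also higher after complete smoke in every pair.

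**Figure D4:**
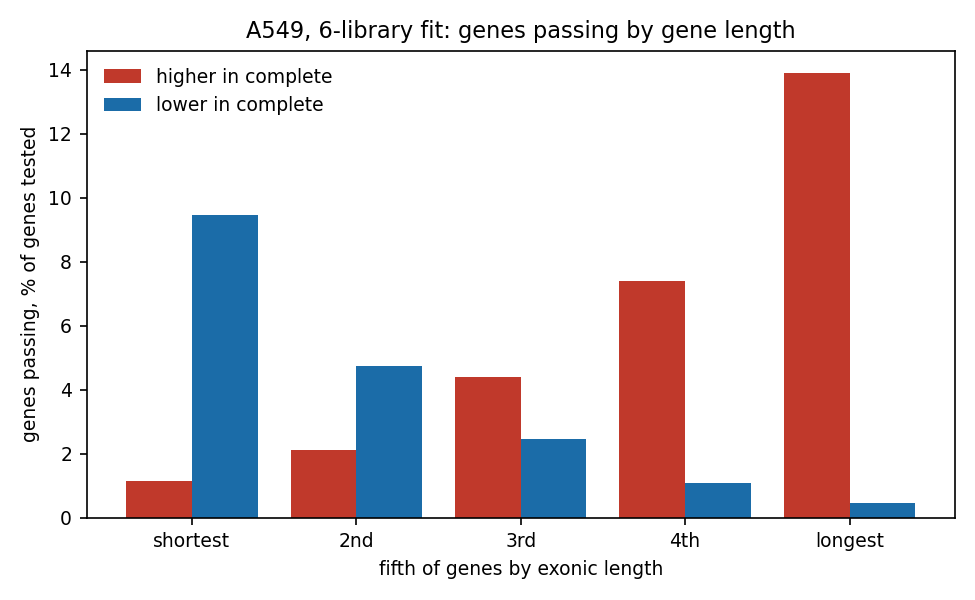
Share of A549 genes (% of those tested) called higher (red) or lower (blue) after complete than after filtered smoke in the 6-library fit, in 5 equal bins of exonic length. Higher calls go from 1.14% of the shortest to 13.9% of the longest genes and lower calls from 9.47% to 0.451%.

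Of the other stress lists, the metallothionein and zinc export list had a median of -0.32 over 6 tested genes, with pair medians of -0.88, 0.16 and 0.02 and so no common direction. The remaining ones described here had medians near 0. Among 25 NRF2 targets tested the median was -0.07, with 2 higher and 1 lower over 6 libraries, shares near those of all genes (5.72% and 3.59%). SLC7A11, the cystine transporter of this list, stood at 144, 151 and 265 CPM after complete, 93, 95.5 and 206 CPM after filtered smoke and 613 to 685 CPM in clean air. HMOX1, which degrades haem, was at 261, 348 and 525 CPM after complete and 309, 304 and 366 CPM after filtered smoke, with no common direction (0.17 ± 0.16 SE, edgeR adjusted p = 0.797). Among 25 heat shock genes the median was -0.01. The inducible chaperone HSPA6 was at 186, 289 and 254 CPM after complete, 174, 395 and 486 CPM after filtered smoke and 1.95 to 6.52 CPM in clean air, and its pairs disagreed in sign. The list of NF-kB targets and cytokines had a median of 0.01 over 20 genes, and CXCL8, a neutrophil attractant, an edgeR adjusted p of 0.769 with 25.4, 56.2 and 95.9 CPM after complete and 54.1, 57.3 and 93.7 CPM after filtered smoke. DDIT3, a factor of the integrated stress response, was -0.43 ± 0.29 (log2, SD, n = 3 pairs), with an edgeR adjusted p of 0.756 over 9 libraries and 0.000143 over 6. Its mean was 55.8 CPM after complete and 72.1 CPM after filtered smoke, against 17.6 CPM in clean air. Of 24 hypoxia genes 3 were called higher and 2 lower over 6 libraries (5.72% and 3.59% of all genes), with a median of 0.02. The glucose transporter SLC2A1, at 0.5 ± 0.4, and NDRG1, at 0.52 ± 0.27 (log2, SD, n = 3 pairs), were among the higher, and the lower ones were ANKRD37 at -0.47 and ANGPTL4 at -0.41 (log2, 6-library fit). Mean clean air levels were 285 CPM for SLC2A1 (242 after complete, 175 after filtered smoke) and 73.2 CPM for NDRG1 (55.2 and 37.8). For ANKRD37 the clean air mean was 1.82 CPM (15.3 and 20.8) and for ANGPTL4 12.7 CPM (20.8 and 28.1). INSIG1, which holds back cholesterol synthesis, was higher by 0.58 ± 0.27 (log2, SD, n = 3 pairs), with a clean air mean of 65.5 CPM (103 and 67.4). COL1A1, a collagen counted among fibroblast markers, differed by 0.68 ± 0.47 on 8.81 to 24.3 CPM, with a clean air mean of 35.1 CPM. PECAM1 and VWF of endothelium and PTPRC and CD68 of leukocytes were at or below 0.511 CPM.

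The same contrast in BEAS-2B cells called no gene among 16356 (0%) with edgeR, DESeq2 or limma-voom, and 951 (5.81%) had an unadjusted edgeR p under 0.05. CYP1A1 differed little between the smokes there, at 4.56, 3.85 and 4.54 CPM after complete and 3.78, 3.99 and 3.84 CPM after filtered smoke, with a 95% interval of the log2 difference of -0.23 to 0.52. CYP1B1 stood at 91.5, 96.4 and 149 CPM after complete and 50.5, 75.4 and 95.5 CPM after filtered smoke, a difference of 0.64 ± 0.18 (SE, edgeR adjusted p = 0.79). In BEAS-2B clean air CYP1A1 stood at 13.5, 10.1 and 10.8 CPM and CYP1B1 at 136, 310 and 295 CPM. Both genes lay below clean air after complete smoke (log2 -1.4 and -1.08, edgeR adjusted p = 4.33e-05 and 0.000468). The same held after filtered smoke (log2 -1.55 and -1.72, edgeR adjusted p = 2.2e-05 and 2.4e-05). The difference between lines, tested as an interaction over 17703 genes, passed for none (0%), with 660 (3.73%) at an unadjusted edgeR p under 0.05. Its estimate, higher in A549 for each, was 4.51 ± 1.19 (SE) for CYP1A1 with an edgeR adjusted p of 1, 2.22 ± 0.41 for CYP1B1 with 0.603, 2.11 ± 0.4 for BMF with 0.603 and 1.08 ± 0.32 for TIPARP with 1. BMF was at most 3.74 CPM after either smoke in BEAS-2B cells, against 55.4 to 64.2 CPM in clean air. For EREG the line difference was 0.09 ± 0.37 (SE), a spread too wide to show that the lines act alike. In BEAS-2B cells the complete library of number 3 stood apart, with 31.7% of reads mapping to several places, and without it 0 genes passed the BEAS-2B contrast, whereas 63 passed without the complete library of number 2.

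**Figure D5:**
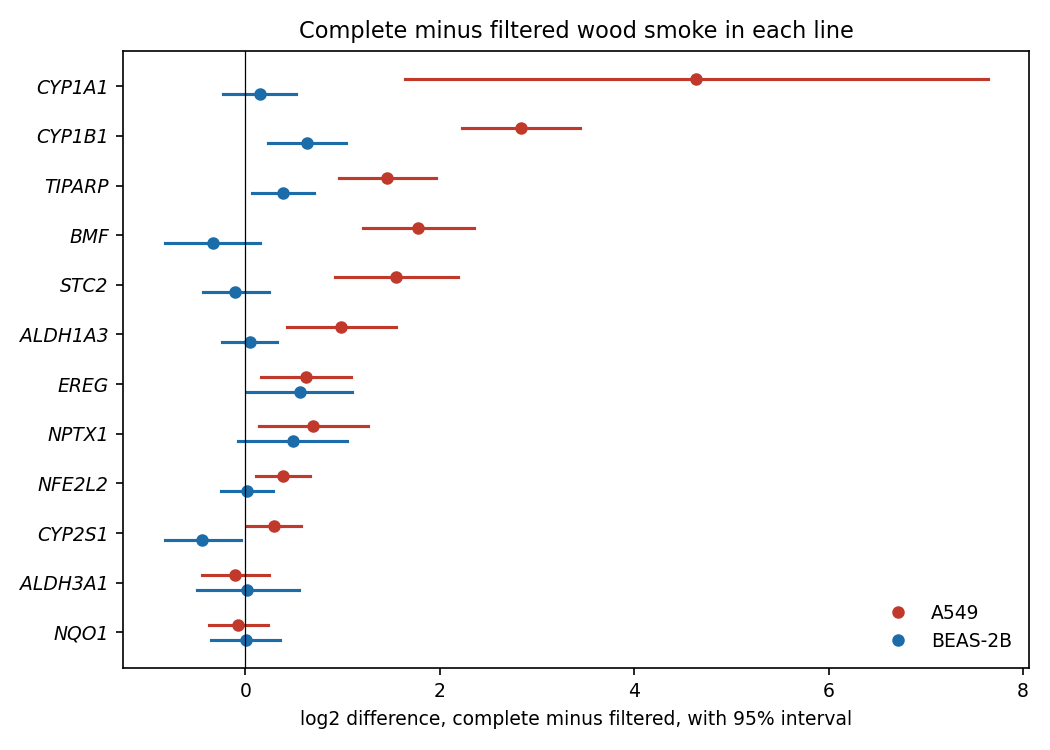
Log2 difference of complete minus filtered smoke with its 95% interval (9-library fit of each line) for 12 receptor-list genes in A549 (red) and BEAS-2B (blue). The A549 estimates of CYP1A1, CYP1B1, TIPARP, BMF and STC2 run from 1.46 to 4.64 and those of BEAS-2B from -0.33 to 0.64; no line difference passed after adjustment.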

How the data were processed

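The deposited values are raw, unnormalized counts of reads in each gene. The submitters' processing notes name STAR 2.7.10b as tool and GRCh38 as build. Per the labels' protocols, total RNA came from a TRIzol extraction and the sequencing libraries from an Illumina TruSeq mRNA kit, in a version that does not mark strand. The counts nevertheless differed strongly between strands, and the reason was not tested. The annotation release is not given in the sources used here. The fourth column, counts of one strand, exceeded that of the opposite strand by a factor of 14.4 to 17.1 in A549 libraries. It was used without the 4 summary lines. These hold unmapped, multimapping and ambiguous reads and reads counted to no gene. Gene names matched 62625 of 62649 IDs, and lengths came from GENCODE release 29 (58225 IDs).

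Low counts were removed with filterByExpr and TMM set the scaling. The test was edgeR 4.0.16's quasi-likelihood F-test (robust, R 4.3.3), fitted to the 9 libraries of each line, with the sample number as a block. Adjusted p-values are Benjamini-Hochberg over all genes, with 0.05 as the threshold; standard errors and 95% intervals were derived from the test statistic and are approximate. CPM values are scaled by TMM; pair differences use log2 CPM with a prior count of 2. Same-numbered A549 libraries deviated together from their group means (r from 0.22 to 0.8, against -0.68 to 0.34 between different numbers), and, with every r over 0.1, the numbers were taken to pair them. In BEAS-2B cells r ran from -0.13 to 0.67, against -0.67 to 0.48 between different numbers, so this rule was not met there. The block was kept for BEAS-2B cells and for the line difference all the same. No 2 libraries held the same counts. Scripts were tested on simulated data.

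Members, gene lists and tests were chosen with earlier results of these data known. Named genes are the members of the 3 receptor lists, the genes passing, the 10 in each direction with the smallest p among protein-coding genes at 5 CPM or more on average with one sign in all pairs, up to 4 members of each other list and fixed sentinels; of these, those that served the text were given. NR4A3, FOSL1, MAFF and the markers at low levels were named after their values were seen. Alternatives were DESeq2 1.42.0, limma-voom (limma 3.58.1), other scalings, filters, libraries and strand settings, and each library left out in turn.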

Additional observations from a re-analysis of the deposited data

How the results depend on the processing

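The count of A549 genes passing, 1 in the fit of 9 libraries, was 0 with no replicate block, 8 with DESeq2's Wald test, 94 with no low-count filter, 4 with all 18 libraries, 2 with counts that ignore strand and 1371 with only the 6 libraries compared. It ran from 0 to 1 when each of the 6 libraries was left out in turn, with 0 without the complete library of number 2. Alternatives chosen after seeing the data gave 5 without clean air number 1, 1187 with numbers 1 and 2 only, and 331, 505 and 1850 in the 6-library fit without pair 1, 2 or 3. Other scalings, the stricter filter and limma-voom gave 1. The cause of these shifts was not tested. In BEAS-2B cells the count of 0 became 169 with no filter and ran from 0 to 63 over libraries left out (63 without the complete library of number 2). For the line difference the count of 0 became 27 with no filter and 2 with DESeq2, and ran from 0 to 2 over libraries left out. Of 859 values of 48 genes under 18 alternatives 7 changed sign, all of them near 0: CXCL8 (0.01 without complete 1), NQO1 (0 without filtered 1), ALDH3A1 (0.01 without filtered 2), AHRR (-0.01), EGR1 (0.02) and HMOX1 (-0.03) without complete 3, and HMOX1 (-0.01) with numbers 1 and 2 only. With libraries left out in turn these ran to -0.55 for CXCL8, -0.16 for NQO1, -0.23 for ALDH3A1, 1.08 for AHRR, -0.29 for EGR1 and 0.39 for HMOX1. Depth limits what can be said of AHRR, which had under 1 CPM in each of the 6 libraries.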
